A study of Mus musculus with 4 samples.

Results

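The B cell identity genes are 9 genes whose products build, regulate or specify B lymphocytes, namely Cd79a, Cd79b, Ms4a1, Pax5, Ebf1, Cd22, Blnk, Pou2af1 and Spib. They were found by gene symbol among the 31748 genes of each count table. All 9 had counts in every library, and all 9 passed the filter on low counts, as did 12752 genes in all. The libraries themselves are labelled as CD4+ T cells, so these genes report on RNA of another lineage in the same cultures, or on the genes' activity in T cells. In bulk RNA, fewer cells of a type and less RNA per cell cannot be told apart. All levels here are relative to the RNA of the whole library. A gene said to fall thus fell as a share of that RNA, and absolute amounts were not measured.

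RNA was sequenced from 4 libraries, 2 of genotype TEaWT (WT) and 2 of genotype TEaMthfd2 KO (KO). In all 4, spleen CD4+ T cells carrying the TEa receptor transgene were taken from mice aged 8 weeks by magnetic positive selection and kept for 3 days with mitomycin-treated antigen-presenting cells, sorted from spleens of F1 (BALB/c x C57BL/6) mice of the same age. The labels do not say how or in which cells Mthfd2 was deleted, by which marker the antigen-presenting cells were sorted, or whether replicates are separate mice or cultures, so p-values measure only the spread between these libraries. Mthfd2 stood at 279.8 and 280.5 CPM (counts scaled to a library total of 1000000) in the WT pair, against 222 and 252 CPM in the KO pair (log2 fold change -0.24 ± 0.14 (SE), edgeR adjusted p = 0.324), and without knowing the deleted part this level does not check the genotype. The label of CD4+ cells is not borne out by the co-receptor genes, since Cd8a exceeded Cd4 by 3.10 to 4.00 times in all libraries. This ratio is of CPM and was not corrected for gene length. Total counts ran from 14191401 to 15955863, and the first principal component, with 72.3% of the variance, separated WT replicate 1 (-57.7) from WT replicate 2 (-16.6) by more than the KO pair (39.9 and 34.4) was spread.

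A B cell detects antigen with a membrane immunoglobulin that has almost no signalling tail of its own. The signal is passed on by the paired chains Ig-alpha (Cd79a) and Ig-beta (Cd79b), which recruit the kinase Syk, and the adaptor Blnk then links Syk to Btk and phospholipase C gamma. Cd22 restrains this signal, and Ms4a1 encodes CD20, the target of rituximab. Ebf1 and Pax5 commit progenitors to the lineage and keep it, while Pou2af1 (the octamer coactivator OCA-B) and the ETS factor Spib act in mature B cells. In the spleen, B cells are among the main cells that carry MHC class II and can therefore act as antigen-presenting cells.

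All 9 genes were lower in KO than in WT libraries, and in each of them both KO libraries lay below both WT libraries. Such a gap without overlap was frequent in this comparison: 30.1% of all genes tested had it in this direction. Of the 9 genes, 5 fell past the threshold (edgeR quasi-likelihood test, Benjamini-Hochberg adjusted p under 0.05 over all genes tested), 0 rose and 4 did not pass. Of all genes tested, 1.56% fell and 2.39% rose. The 5 were Cd79b, Pax5, Cd22, Blnk and Pou2af1, and the 4 were Cd79a, Ms4a1, Ebf1 and Spib. The median log2 fold change of the 9 was -1.22, beside -0.0026 for all genes tested. The summed level of the 9 genes was 1220 and 775 CPM in the WT pair, against 447 and 383 CPM in the KO pair, or 0.125% and 0.0781% of all counts against 0.0445% and 0.0370%.

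**Figure D1:**
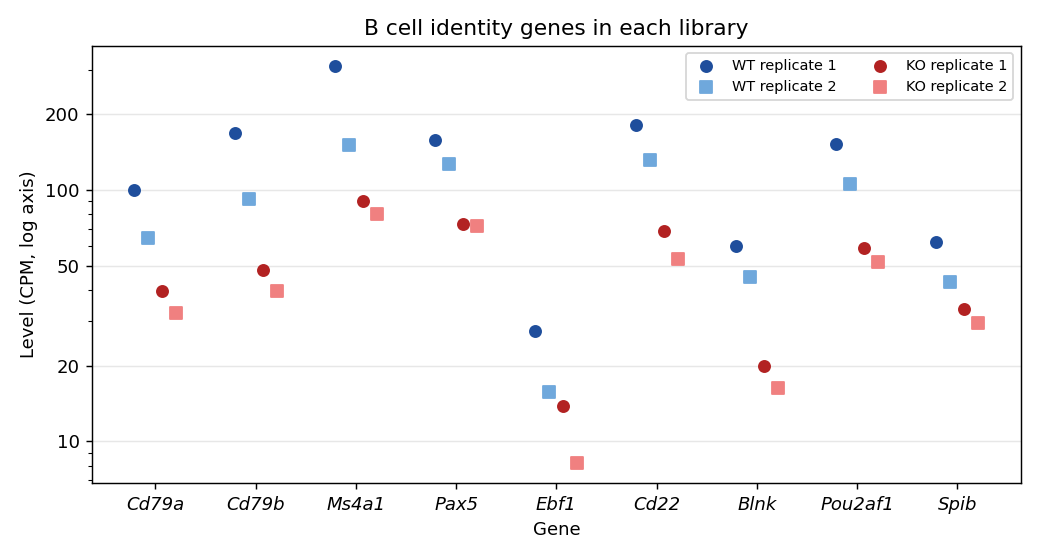
Level of each B cell identity gene (x axis) in CPM on a log axis (y axis), with 1 point per library (blue, WT; red, KO; circles, replicate 1; squares, replicate 2). In all 9 genes the WT libraries lie above the KO libraries, with WT replicate 1 the highest, and the pair of WT points is widest apart for Ms4a1 (312 and 151 CPM).

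The signalling chains of the B cell receptor were measured first. Cd79b (ENSMUSG00000040592.11, minus strand of chromosome 11, 106311341 to 106314762, GRCm38) had 168 and 92.3 CPM in the WT pair, against 48.2 and 39.7 CPM in the KO pair. It had the largest fall of the 9, with a log2 fold change of -1.57 ± 0.29 (SE, n = 2 libraries a group, edgeR adjusted p = 0.0438), and the lowest WT library stood at 1.92 times the highest KO library (95% counting interval 1.75 to 2.11). Its partner Cd79a (ENSMUSG00000003379.7, plus strand of chromosome 7, 24897381 to 24902197) had 99.8 and 64.2 CPM in the WT pair, against 39.7 and 32.3 CPM in the KO pair. The libraries again did not overlap, and at -1.19 ± 0.25 Cd79a lay just outside the threshold (edgeR adjusted p = 0.0504). The WT libraries differed from each other by 1.56 times for Cd79a and 1.82 times for Cd79b, close to the gap between the groups.

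Cd22, an inhibitory lectin of the Siglec family that binds sialic acid and damps receptor signalling, lies on the minus strand of chromosome 7 (ENSMUSG00000030577.14, 30865402 to 30880342). It had 181 and 131 CPM in the WT pair, against 68.9 and 53.2 CPM in the KO pair. The fall was -1.35 ± 0.22 on the log2 scale (edgeR adjusted p = 0.0400), and the gap between the groups (1.91 times) was larger than that between the WT libraries (1.38 times). Ms4a1 (ENSMUSG00000024673.9, minus strand of chromosome 19, 11249675 to 11266241) had the most counts of the 9 genes in every library, 5102 and 2227 in WT and 1274 and 1116 in KO libraries, or 312 and 151 CPM against 90.1 and 80.0 CPM. WT replicate 1 was 2.07 times WT replicate 2 (95% counting interval 1.97 to 2.18), which is more than the 1.67 times between WT replicate 2 and KO replicate 1. Its difference of -1.44 ± 0.33 did not pass (edgeR adjusted p = 0.0573).

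Blnk, the adaptor that couples Syk to downstream enzymes, lies on the minus strand of chromosome 19 (ENSMUSG00000061132.13, 40928927 to 40994535). It was at 59.7 and 45.2 CPM in the WT pair, against 20.0 and 16.3 CPM in the KO pair. Of the 9 genes it had the smallest p-value (log2 fold change -1.53 ± 0.21, edgeR adjusted p = 0.0326) and the widest gap between the groups, 2.26 times (95% counting interval 1.96 to 2.60). The WT libraries differed by 1.32 times.

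Among the transcription factors, Pax5 was the steadiest. The gene (ENSMUSG00000014030.15, minus strand of chromosome 4, 44524757 to 44710487) had 158 and 127 CPM in the WT pair, against 73.5 and 71.9 CPM in the KO pair. Its libraries differed least within each group, by 1.24 times in WT and by 1.02 times in KO (95% counting interval 0.936 to 1.12), and the fall was -0.97 ± 0.17 (edgeR adjusted p = 0.0400). An annotated transcript on the opposite strand, 5730488B01Rik, shares 636 exon bases with Pax5. It had 31 and 30 counts in the WT pair, against 12 and 4 in the KO pair, while Pax5 had at least 1003 in each library. Antisense genes that are not among the counted genes also share exon bases, Gm12462 with Pax5 (125) and Gm29439 with Cd22 (479).

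Ebf1 (ENSMUSG00000057098.14, plus strand of chromosome 11, 44617317 to 45008091) had the fewest counts, 448 and 232 in WT and 195 and 114 in KO libraries. These are 27.4 and 15.7 CPM against 13.8 and 8.17 CPM. The step from WT replicate 2 to KO replicate 1 was 1.14 times with a 95% counting interval of 0.936 to 1.38, so at this depth the nearest libraries of the groups were not distinguishable. The log2 fold change was -0.97 ± 0.37 (edgeR adjusted p = 0.165). Ebf1 was also the gene whose KO libraries differed most, by 1.69 times.

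Pou2af1 (ENSMUSG00000032053.8, plus strand of chromosome 9, 51213708 to 51240080) had 153 and 105 CPM in the WT pair, against 58.9 and 51.7 CPM in the KO pair. It fell by 1.22 ± 0.22 on the log2 scale (edgeR adjusted p = 0.0402). Spib (ENSMUSG00000008193.13, minus strand of chromosome 7, 44525993 to 44532071), which dendritic cells of the plasmacytoid type express as well, had 62.0 and 43.0 CPM against 33.7 and 29.5 CPM. Its difference was the smallest of the 9 genes, -0.73 ± 0.22 (edgeR adjusted p = 0.101), with a gap between the groups of 1.27 times (95% counting interval 1.13 to 1.44).

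OCA-B acts together with POU proteins that bind the octamer letters ATGCAAAT, so the promoters of the genes that were lower together were searched for these letters. The RefSeq promoter table (GRCm38.p6) matched 7 of the 9 genes with 8 entries. Cd79b and Ms4a1 were not matched. In the 250 bases before the start, ATGCAAAT was found on either strand in 1 of the 8 entries, that of Blnk, and in 1.60% of all 32851 promoters. The shorter TGCAAAT, which every octamer contains, was found for Blnk, Pou2af1 and Spib and in 3.56% of all promoters. The 3 are shown because they hold these letters. Blnk is shown for 28 bases only, since GENCODE places its window within an exon. Capitals mark matches to TGCAAAT on either strand (the full octamer for Blnk, read from the opposite strand as ATTTGCAT) and, in Spib, to CCCNNGGG, the core of the site of EBF factors. The last stretch in Spib is a pair of overlapping matches.
Blnk, minus strand, chr19:40994334-40994361: actggaagggATTTGCATgcccaataag
Pou2af1, plus strand, chr9:51213440-51213689: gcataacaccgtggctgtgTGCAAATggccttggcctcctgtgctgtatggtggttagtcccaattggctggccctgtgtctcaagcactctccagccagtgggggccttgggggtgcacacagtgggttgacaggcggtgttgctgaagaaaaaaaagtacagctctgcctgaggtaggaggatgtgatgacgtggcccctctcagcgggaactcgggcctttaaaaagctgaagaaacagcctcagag
Spib, minus strand, chr7:44532072-44532321: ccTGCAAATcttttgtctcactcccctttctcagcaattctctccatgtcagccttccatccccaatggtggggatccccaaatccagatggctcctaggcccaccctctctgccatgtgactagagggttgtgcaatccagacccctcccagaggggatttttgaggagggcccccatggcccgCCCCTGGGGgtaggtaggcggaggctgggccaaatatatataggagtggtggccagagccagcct
The match lay 130 bases before the start for Blnk, 231 for Pou2af1 and 248 for Spib. CCCNNGGG was found for Cd22 and Spib and in 11.8% of all promoters. The ETS letters AGGAAGT were found for Blnk and Cd79a (7.69% of all), and the E-box CAGGTG for Blnk, Cd22 and Cd79a (17.2% of all). Annotated exons also covered 116 bases of the Cd79a window, 102 of the Cd22 window and all 250 of 1 Ebf1 entry. The ETS match of Cd79a (55 bases before the start) and the E-box of Cd22 (245) lay within exons, as did all matches of Blnk. The motifs were chosen with the promoters in view, and a match is a description of the letters, not evidence of binding.

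The levels of the 9 genes were ranked against each other per length, as CPM per kilobase of annotated exon. Exon length ran from 1431 bases (Cd79b) to 9756 bases (Ebf1). The order was the same in both groups: Cd79b, Cd79a, Pou2af1, Ms4a1, Cd22, Spib, Pax5, Blnk and Ebf1. In WT libraries Cd79b was at 90.9 ± 37.3 and Cd79a at 56.3 ± 17.3 CPM per kilobase (SD, n = 2). Neighbours from Cd79b down to Cd22, and the pair Spib and Pax5, had overlapping ranges of mean ± SD. Blnk (8.75 ± 1.72) stood apart from Pax5 (16.1 ± 2.47) above it and from Ebf1 (2.21 ± 0.847) below it. In KO libraries Cd79b was at 30.7 ± 4.17 and Ebf1 at 1.13 ± 0.407 CPM per kilobase. There the ranges of the neighbours Cd79b, Cd79a and Pou2af1 overlapped, as did those of Ms4a1, Cd22 and Spib, while Pou2af1 stood apart from Ms4a1 and Spib from Pax5. Per kilobase of annotated exon, Cd79b and Cd79a thus had the highest values of the set in every library. Cd79a was only narrowly above Pou2af1, with 44.0 against 41.4 in WT replicate 2 and 22.1 against 20.3 in KO replicate 2. The length of the transcripts actually expressed was not measured, and the order depends on the length used.

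The genes did not keep their proportions exactly. The share of each gene in the summed counts of the 9 does not depend on how libraries are scaled, and exact binomial (Clopper-Pearson) intervals cover counting error only. Spib made up 5.08% (4.78 to 5.40) and 5.55% (5.13 to 5.98) in WT libraries and 7.55% (6.91 to 8.23) and 7.72% (7.01 to 8.47) in KO libraries. The intervals of the groups were apart, with Spib the larger part in KO. Cd79b moved the other way, from 13.8% and 11.9% in WT to 10.8% and 10.4% in KO libraries, and Blnk from 4.90% and 5.83% to 4.48% and 4.25%, though here the intervals of WT and KO libraries in part overlapped. Cd79a held between 8.18% and 8.89% in all 4 libraries, and Pou2af1 between 12.5% and 13.6%. The shares of Ms4a1 set WT replicate 1 (25.5%) apart from all other libraries (19.4% to 20.9%), and those of Pax5 set it apart on the low side (13.0% against 16.4% to 18.8%). With 2 libraries against 2, an exact two-sided permutation test cannot go below 0.333, so no test of these shares was made.

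**Figure D2:**
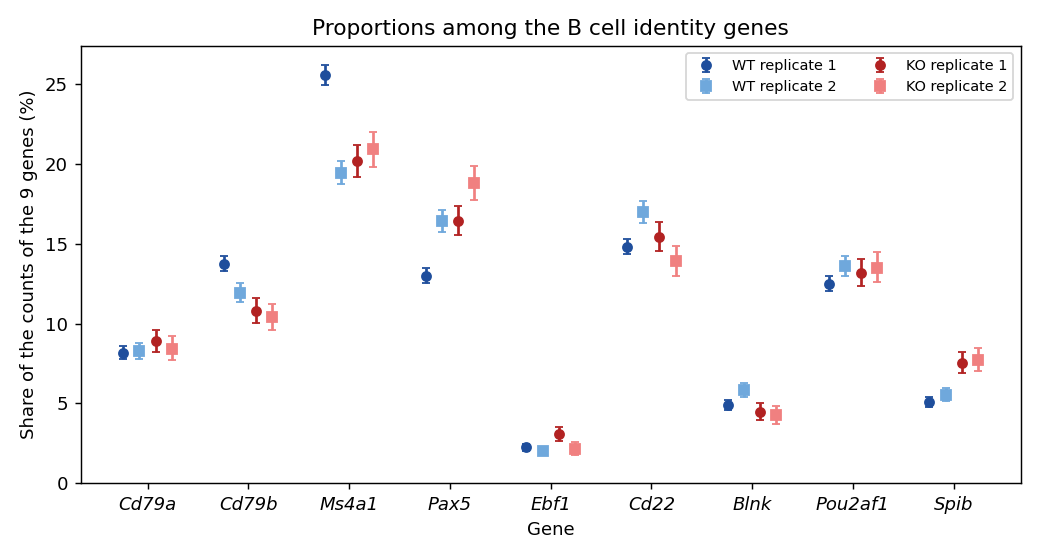
Share of each gene in the summed counts of the 9 B cell identity genes, in percent (y axis), by gene (x axis) and library, with exact 95% binomial intervals for counting error. Spib takes a larger share in both KO libraries (7.55% and 7.72%) than in both WT libraries (5.08% and 5.55%), while Ms4a1 stands out only in WT replicate 1 (25.5%).

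WT replicate 1 was the highest library for all 9 genes, by 1.24 to 2.07 times over WT replicate 2, and in all 9 the 95% counting interval of that ratio lay above 1. KO replicate 1 exceeded KO replicate 2 by 1.02 to 1.69 times, with the interval above 1 for 7 genes. Over all genes pooled, the spread within each pair also exceeded counting error. Genes with many counts weigh most in this measure, and it does not compare the 9 genes with others. The chi-square per degree of freedom, near 1 for counting error alone, was 40.3 over 12620 genes in the WT pair. In the KO pair it was 16.1 over 12502 genes. In 6 of the 9 genes the gap between the groups was larger than the ratio of the WT libraries. The exceptions were Ms4a1, Ebf1 and Spib. How many of all genes had such intervals or such a gap was not counted. With WT replicate 1 left out, the median of the 9 was -0.83 and 6 of them were called (0.948% of all genes tested were called lower): the same 5 and Ms4a1 (-0.82, edgeR adjusted p = 0.0441), while Spib was at -0.44 (0.276) and Ebf1 at -0.51 (0.486). Without WT replicate 2 all 9 were called (8.45% of all genes called lower). Without KO replicate 1 or KO replicate 2, edgeR called 0 of the 9, with 9 and 7 at an unadjusted p under 0.05, and it called 0 genes in all (1605 and 2161 at an unadjusted p under 0.05). The direction was negative for all 9 genes in each of these fits. With all libraries, DESeq2 and edgeR without the filter on low counts each called 7 of the 9, the same 5 with Cd79a and Ms4a1 (5.72% and 3.72% of all genes called lower). Upper quartile scaling left 4 (0.957%), Cd79b being lost, while DESeq2 size factors (1.58%), library size only (1.48%) and limma-voom (1.70%) each gave 5.

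Genes whose levels follow the same course over the 4 libraries were sought by the distance between profiles of log2(CPM + 0.5) centred on their mean. The mean profile of the 9 genes was 0.90 and 0.28 in WT and -0.45 and -0.73 in KO libraries. Cd79a lay nearest to it (distance 0.0351) and Spib farthest (0.488). The 8 nearest genes outside the set, at distances of 0.0582 to 0.140, were Tcf4, Gm4610, Snx8, Gpr83, Dram1, Dnajb2, Mzb1 and Tmem8b. Apart from Cd79a and Pou2af1 (0.0912), the members themselves lay farther from the mean profile than these 8 genes, from Cd22 (0.205) upwards. Tcf4, which encodes the E protein E2-2, had 52.5 and 33.8 CPM in WT and 19.6 and 17.0 CPM in KO libraries (log2 fold change -1.24 ± 0.25, edgeR adjusted p = 0.0494). Mzb1, a chaperone of immunoglobulin assembly in marginal zone B cells and plasma cells, had 42.6 and 27.2 against 15.2 and 11.9 CPM (-1.36 ± 0.28, edgeR adjusted p = 0.0496). Snx8, which lay nearer than Mzb1 (0.0614 against 0.134), had 57.7 and 39.3 against 22.2 and 18.4 CPM (-1.26 ± 0.24, edgeR adjusted p = 0.0437). Dnajb2 had 37.8 and 25.4 against 15.9 and 13.3 CPM (-1.11 ± 0.26, edgeR adjusted p = 0.0599). Gm4610, Gpr83, Dram1 and Tmem8b had at most 82 counts in a library, where the added 0.5 CPM shapes the profile. A likeness over 4 libraries is a description only.

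Among other B cell surface genes, of 22 tested, 6 fell, 0 rose and 16 did not pass, with a median log2 fold change of -1.33. Of those that fell, Cd40, the receptor for T cell help, fell by 1.57 ± 0.27, Cd180, a relative of the Toll-like receptors, by 1.57 ± 0.24, the scaffold gene Bank1 by 1.59 ± 0.30, Ly6d by 1.73 ± 0.32 and the sulfotransferase gene Chst3 by 1.76 ± 0.32. Fcer2a, the low-affinity IgE receptor, was at -0.92 ± 0.21 (edgeR adjusted p = 0.0599), and the complement receptor gene Cr2, with at most 250 counts, at -1.35 ± 0.49 (0.154). The activation marker Cd83 had 316 and 163 against 93.8 and 73.8 CPM (-1.52 ± 0.32, edgeR adjusted p = 0.0504). The largest differences of the list, Fcrla at -2.02 and Fcmr at -1.92, did not pass, and WT replicate 1 carried them: Fcrla had 22.8 CPM there and 4.60 CPM in WT replicate 2. Vpreb3 alone was positive (0.33 ± 0.65), on at most 14 counts. Cd37, a tetraspanin gene and one of those with the highest CPM of the list, was at -0.44 ± 0.18 (edgeR adjusted p = 0.179). The count of 6 lower surface genes was 2 with upper quartile scaling, 4 with limma-voom or library size only, 14 with DESeq2 and 15 without the filter. Without WT replicate 1 the median was -0.73 with 7 called lower, 19 were called without WT replicate 2, and 0 in this list or any list below without KO replicate 1 or without KO replicate 2.

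The enzymes and adaptors downstream of the B cell receptor split. Of 23 tested, 2 fell, 0 rose and 21 did not pass, the median was -0.20, and the summed level of the list was between 2921 and 3034 CPM in all 4 libraries. The 2 that fell were Plcg2, the phospholipase that Blnk recruits (-1.09 ± 0.19, edgeR adjusted p = 0.0400), and the exchange factor Rasgrp3 (-1.38 ± 0.26, 0.0438). The kinases Btk (39.5 and 18.9 CPM in WT, 8.70 and 9.61 CPM in KO libraries, -1.67 ± 0.37, edgeR adjusted p = 0.0541) and Lyn (-1.46 ± 0.33, 0.0593) did not pass. The 3 members with the highest CPM, which T cells use as well, had positive log2 fold changes that did not pass. Pik3cd was at 0.16 ± 0.17 (edgeR adjusted p = 0.597), Ptpn6 at 0.13 ± 0.14 (0.600) and Cblb at 0.32 ± 0.16 (0.259). Both KO libraries lay below both WT libraries in 10 genes of the list (30.1% of all genes tested) and above them in 6 (29.8% of all). The steady sum thus joins genes that differed in opposite directions. This median rested on single libraries: it was -0.017 without WT replicate 1 (1 called lower) and -0.085 without KO replicate 2. DESeq2 called 5 lower and 1 higher, edgeR without the filter 5 lower, upper quartile scaling 1 lower, and leaving out WT replicate 2 gave 6 lower.

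Of 15 other transcription factors of the lineage, 4 fell and 0 rose, with a median of -0.68. Spi1, which encodes PU.1 of myeloid and B cells, fell from 27.4 and 19.3 CPM to 4.95 and 3.15 CPM (-2.52 ± 0.33, edgeR adjusted p = 0.0292). Relb, Tcf4 and Irf4 fell by 1.31 ± 0.24, 1.24 ± 0.25 and 1.23 ± 0.20, and Irf4 is also a factor of activated T cells and plasma cells. Mef2c was at -1.29 ± 0.35 (edgeR adjusted p = 0.0851) and Irf8 at -1.19 ± 0.24 (0.0502). Ikzf1, an Ikaros family factor of all lymphocytes, was at 0.37 ± 0.16 (edgeR adjusted p = 0.212). Without WT replicate 1 the median of this list was -0.13 with 3 called lower, and without WT replicate 2 it was -0.78 with 7. Upper quartile scaling called 2 lower, and DESeq2 and edgeR without the filter each called 6 lower and 1 higher.

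Among plasma cell genes 3 of 12 tested fell and 0 rose (median -0.64), namely Jchain, Mzb1 and Irf4. Jchain, the joining chain of secreted antibodies, had 62.9 and 17.4 CPM in WT and 4.45 and 2.15 CPM in KO libraries (-3.60 ± 0.67, edgeR adjusted p = 0.0428). Xbp1, the factor of the secretory pathway, was at -0.23 ± 0.15 (edgeR adjusted p = 0.393). Of the 12 genes 8 had a negative log2 fold change, as did 6402 of all 12752 genes tested. Edem1, of the degradation of misfolded proteins, was at 0.36 ± 0.19 (edgeR adjusted p = 0.280), Sec11c, a signal peptidase subunit, at 0.81 ± 0.22 (0.0838), and Prdm1, which encodes the plasma cell factor Blimp-1, at 0.36 ± 0.22 (0.351). DESeq2 and edgeR without the filter each called 4 plasma cell genes lower and 1 higher, upper quartile scaling and limma-voom 1 lower, library size only and the fit without WT replicate 1 each 2 lower, while 4 were lower and 2 higher without WT replicate 2. Of 6 germinal centre genes tested, edgeR, DESeq2 and limma-voom each called 0 (by edgeR 2 were at an unadjusted p under 0.05: Mybl1 at 1.11 ± 0.41 with an adjusted p of 0.158 and Mef2b at -1.08 ± 0.39 with 0.148). Of 10 immunoglobulin constant genes tested, 6 fell (median -2.08), Igha, the heavy chain of IgA, by the most (-4.08 ± 0.58, edgeR adjusted p = 0.0326), Ighd from 393 and 121 CPM to 39.7 and 41.8 CPM and Igkc from 762 and 323 CPM to 129 and 119 CPM. Ighm, on the other hand, stood at 1118 and 852 CPM in WT and 646 and 714 CPM in KO libraries (-0.53 ± 0.18, edgeR adjusted p = 0.129). Of the immunoglobulin genes 4 were called lower with upper quartile scaling or library size only, 3 with limma-voom and 10 without WT replicate 2, and without WT replicate 1 the median was -1.38 with 5 called. Without WT replicate 2, 2 germinal centre genes were called lower and 1 higher.

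MHC class II genes, which B cells share with other antigen-presenting cells, were lower beside the B cell genes: 7 of 10 fell and 0 rose, with a median of -1.37. H2-Aa had 709 and 409.6 CPM in WT and 215 and 161 CPM in KO libraries (-1.57 ± 0.28, edgeR adjusted p = 0.0408), and Cd74, the invariant chain, fell by 1.48 ± 0.25 (0.0400). Without WT replicate 1 the median was -0.96 with 6 called. Upper quartile scaling called 3 of the 10 lower.

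**Figure D3:**
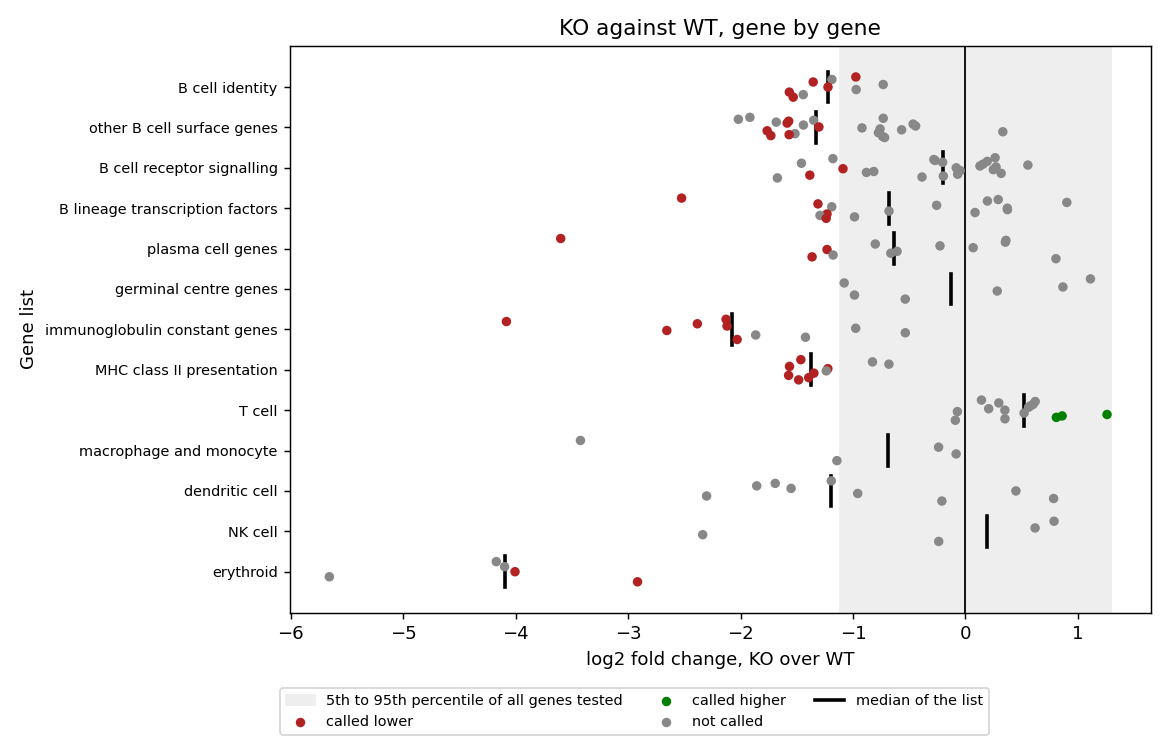
Log2 fold change of KO over WT (x axis) for every tested gene of each list (y axis), with 1 point per gene (red, called lower; green, called higher; grey, not called), a bar at the median of each list and the 5th to 95th percentile of all genes tested in light grey. The 9 B cell identity genes span -1.57 to -0.73, close to the MHC class II genes, while the T cell genes centre on 0.52.

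Markers of other cells moved in the same libraries, and their part in the results was not tested. T cell genes were on the other side: of 15 tested, 3 rose (Cd3d, Cd3e and Cd3g, the last by 1.26 ± 0.17) and 0 fell, with a median of 0.52. Their summed level was 3827 and 4131 CPM in WT and 5318 and 5631 CPM in KO libraries. Cd3e had 151 and 175 CPM in WT and 287 and 284 CPM in KO libraries (edgeR adjusted p = 0.0413). For every 100 CPM of the T cell list, the 9 B cell genes summed to 31.9 and 18.8 CPM in the WT pair, against 8.40 and 6.80 CPM in the KO pair. Erythroid genes summed to 137 and 33.9 CPM in WT and to 7.00 and 3.15 CPM in KO libraries, and 2 of 5 tested fell. Without WT replicate 1 the T cell median was 0.32. DESeq2 and edgeR without the filter each called 7 T cell genes higher, but they also called more of all genes higher (6.19% and 4.02%). For the erythroid list, upper quartile scaling and limma-voom called 0, library size only 1, and DESeq2 4, while 5 were called without the filter or without WT replicate 2. Its median was -4.10, and -2.64 without WT replicate 1 (1 called).

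Macrophage markers were at 5.50 CPM or below in every library, apart from Ly6c2, which activated T cells also express. Of 13 listed, 4 passed the filter, edgeR and limma-voom called 0 and DESeq2 1, with 1 at an unadjusted p under 0.05 by edgeR. Fcgr1 and C1qa had 0 counts in all libraries, and Lyz2 had 77 and 23 counts in the WT pair, against 4 and 4 in the KO pair. The list summed to 135 and 99.4 CPM in WT and to 113 and 99.8 CPM in KO libraries. Of 13 dendritic cell genes, 9 were tested. Of these edgeR called 0 (6 at an unadjusted p under 0.05), limma-voom 1 and DESeq2 3, all lower. Fscn1 was at -1.86 ± 0.41 (edgeR adjusted p = 0.0539) and Bst2 at -0.96 ± 0.21 (0.0539), while Itgax (CD11c) had between 25 and 53 counts in a library. That list summed to 920 and 472 CPM in WT and to 478 and 426 CPM in KO libraries, much of it Ccr7, which T and B cells express too. All 8 neutrophil genes were below the filter, summing to 16.4 CPM in WT replicate 1 and to at most 1.35 CPM in the other libraries. Of 4 NK cell genes tested, edgeR, DESeq2 and limma-voom called 0 (1 at an unadjusted p under 0.05 by edgeR). Without WT replicate 2, 1 macrophage and 6 dendritic cell genes were called lower, and without the filter 1 and 3. Without WT replicate 1 the medians of these lists moved from -0.69 and -1.19 to -0.039 and -0.79.

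**Figure D4:**
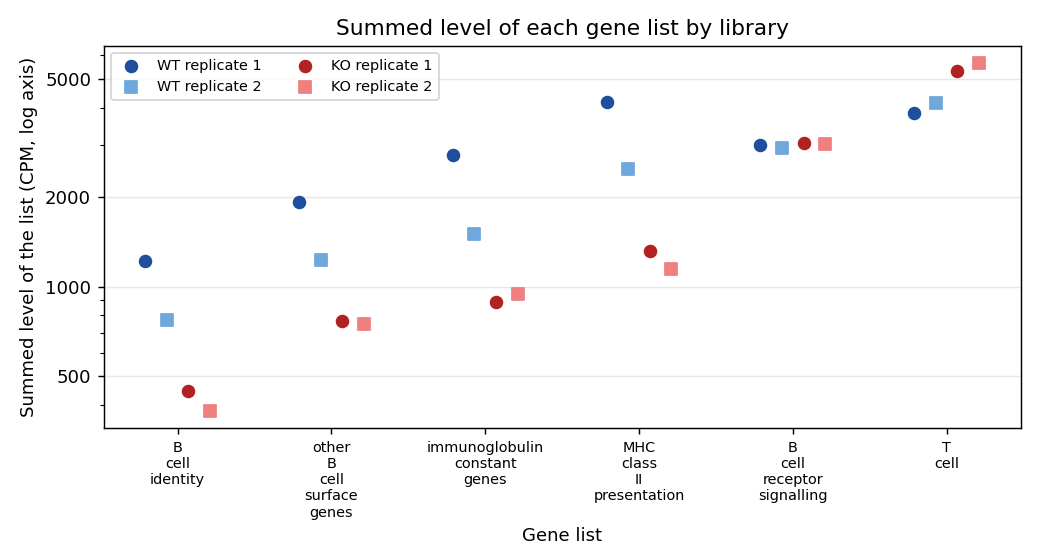
Summed level of 6 gene lists (x axis) in CPM on a log axis (y axis), with 1 point per library (blue, WT; red, KO). The B cell identity genes run from 1220 CPM in WT replicate 1 to 383 CPM in KO replicate 2, the genes downstream of the B cell receptor stay between 2921 and 3034 CPM, and the T cell genes are higher in KO libraries.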

How the data were processed

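RNA-seq libraries (ribosomal RNA depleted, per the labels' protocols) were deposited by the authors as 1 table of whole-number read counts per library, not normalized. Subread 2.0.1 with featureCounts, R 4.0.4, DESeq2 1.30.1 and the build mm10 come from the submitters' processing notes. Neither the strand setting nor the aligner or annotation release was given in the sources used here. Counts of a gene and of an antisense partner could therefore not be separated.

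From these tables, counts of genes passing filterByExpr (at least 10 counts, total at least 15) were scaled by TMM and tested with edgeR 4.0.16 (quasi-likelihood, all 4 libraries, no covariate) in R 4.3.3. P-values were adjusted by Benjamini-Hochberg over 12752 genes, with calls under 0.05. CPM uses TMM-adjusted totals. Each SE is the log2 fold change divided by the root of the F statistic. Positions and exon lengths came from GENCODE M21 (GRCm38, the assembly called mm10). Intervals cover counting error only. Scripts were tested on simulated data. Alternatives were other scalings, no filter, DESeq2 1.42.0, limma-voom (limma 3.58.1), leaving out each library, and a replicate block. The genes named were all 9 members, and from each other list the 3 with the highest mean CPM and the 3 with the largest change, with 8 genes by likeness of profile and a fixed set of cell type genes. Further genes that a count of calls includes were named after their values were seen. Members and lists were chosen with earlier results of these data known. Of the listed symbols, Ighg1, Trac, Trbc1 and Hbb-bs were not matched and are not analysed here. Some genes of the lists are counted in their totals but not reported here by name.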

Additional observations from a re-analysis of the deposited data

How the results depend on the processing

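Over all alternatives the 9 genes kept a negative log2 fold change. The count of called B cell identity genes was 5 with DESeq2 size factors, library size only or limma-voom, 4 with upper quartile factors (Cd79b lost, adjusted p = 0.0530), and 7 without the filter on low counts or with DESeq2, where Cd79a and Ms4a1 were added. The count over all genes was 504, and it was 1419 without the filter, 1549 with DESeq2 and 889 with the replicate block. Leaving out a library gave between 0 and 9 called B cell identity genes, between 0 and 2559 called genes in all, and a median log2 fold change of the 9 between -1.47 and -0.83. Fits that leave out a KO library estimate the spread from the WT pair alone, in which replicate 1 lay apart. Those that leave out a WT library assume that the single WT library varies like the KO pair. The log2 ratio of the summed CPM, KO over WT, was -1.27 with TMM and between -1.32 and -1.26 with other scalings. The replicate numbers were shared by the groups, but the labels do not say whether they mark a shared mouse or culture. Equal numbers were therefore not treated as pairs in the main fit. Deviations of equal numbers were barely correlated (r = 0.0396 over genes, which are not independent replicates). A value over all genes cannot decide whether these 9 genes were paired. In both groups replicate 1 was above replicate 2 for all 9 genes. With the replicate block 7 of the 9 genes were called (3.14% of all genes called lower) and their median was -1.20. The block called 11 surface genes, 6 downstream of the receptor, 5 erythroid and 3 dendritic cell genes lower. It called 5 T cell genes higher, beside 3.83% of all genes. Of the 9 genes Ebf1 had the fewest counts (114 to 448). Its libraries, like those of most of the 9, differed within each group by more than counting error.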
